A study of Mus musculus with 26 samples.

Results

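The heat shock proteins and chaperones of mouse dorsal root ganglia were the 90 genes whose symbol names a member of the HSP70, HSP90, HSP60, HSP10, HSP110 or small heat shock protein families, a DNAJ (J-domain) co-chaperone, a subunit of the CCT chaperonin, a BAG co-chaperone or the heat shock factors Hsf1 and Hsf2, out of 55401 genes in the count tables. The rule uses gene names and no measured value, and it was set with earlier results of these data known. By class they were 13 HSP70 genes, 3 HSP90 genes, 3 HSP60, HSP10 and HSP110 genes, 8 small heat shock proteins, 45 J-domain genes (4 of class A, 13 of class B and 28 of class C), 10 CCT genes, 6 BAG genes and 2 heat shock factors. Another 15 names that mark pseudogenes or antisense transcripts were left out.

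RNA was sequenced from 26 libraries in 10 groups. Dorsal root ganglia, which hold the cell bodies of sensory neurons, came from lumbar levels L4 to L6 and were dissociated 2 to 4 h after lights on. Control mice carried 1 or 2 floxed copies of Ahr, the aryl hydrocarbon receptor gene, and no Cre. Mice labelled cKO were Ahr fl/fl with Thy1-Cre(ERT2/EYFP), a tamoxifen-inducible Cre driven by the Thy1 promoter, so that recombination is directed to cells in which that promoter is active. For the naive and crush groups the design text gives tamoxifen at 100 mg/kg on 5 days at 28 weeks of age to cKO and control mice alike. Tamoxifen treatment of the other mice is not given in the sources used here. Naive and crush ganglia were taken 5 weeks later, either untouched (naive, 3 control and 3 cKO mice) or 1 day after a sciatic nerve crush made at that time (crush, 3 and 3). A supplemental table held ganglia of the operated and the other side 1 day after sham surgery (2 control and 2 cKO mice, both sides of each) and semi-purified neurons 24 h after seeding in culture (3 and 3). Naive mice and neuron donors were labelled female and sham mice male, and the crush groups held both sexes.

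Library totals were 20169388 to 23540375 counts in the naive and crush ganglia, 39306414 to 58751270 in the sham ganglia and 25299938 to 88180611 in the neurons. Of the crush libraries, 1 control library labelled male was female by its transcripts and 1 cKO library labelled female was male. Whether these 2 libraries were exchanged was not tested, so the counts of crush calls are also given without each of them. The ranges of Ahr itself overlapped between the genotypes in naive ganglia (17.8 to 22.8 CPM, counts scaled to library size, in control and 21.5 to 27.0 in cKO) and in every other setting except crush, where cKO was the higher (37.3 to 39.1 against 34.0 to 37.3). A count over the whole gene does not check the deletion of a floxed exon, so genotype is used here as labelled. Ganglion libraries held neuronal markers at a sum of 6434 to 10852 CPM, and in bulk tissue fewer cells of a type and less RNA per cell cannot be told apart.

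HSP70 proteins bind unfolded stretches of other proteins and release them in an ATP-driven cycle that J-domain proteins start and that BAG proteins and HSP110 help to end, and HSP90 takes over clients such as kinases and receptors, the aryl hydrocarbon receptor among them. Small heat shock proteins hold unfolding proteins without ATP, the CCT ring folds actin and tubulin, and the mitochondrial HSP60 and HSP10 form a chamber of their own. Hsf1 drives the cytosolic heat shock genes through heat shock elements in their promoters, while the endoplasmic reticulum (ER) chaperones are induced by the unfolded protein response through ER stress elements.

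Promoters are shown for genes the crush results turn on: Hspa5, Hsp90b1 and Dnajb6, which were called higher, Hspe1 and Hspd1, which hold heat shock elements and were not called, and the near-identical pair Hspa1a and Hspa1b, of which the first alone was called. RefSeq promoter windows of 300 bases (250 before to 50 after the start, GRCm38.p6) were matched for 73 of the 90 genes, with 93 windows. An ER stress element, CCAAT and CCACG separated by 9 bases on either strand, was found in 3 of the 93 windows (3.2%), those of Hspa5, Hsp90b1 and Dnajc3, against 0.12% of all 32851 windows. Of these genes Dnajc3 was not called after crush in either genotype, and the calls of Hsp90b1 were lost under most alternatives. A heat shock element, written as 3 alternating GAA and TTC units each 2 bases apart on either strand, was found in 6 of the 93 (6.5%), which belong to 4 genes, Hspd1, Hspe1, Dnajb6 and Hsph1, against 0.6% of all windows. A match describes letters only, and a window without one says nothing about a factor. Capitals mark the elements in the first 4 sequences and, in the last 2, the 3 bases at which Hspa1a and Hspa1b differ. Each sequence is 250 bases before the start, except for Hspe1 and Hspd1, where it is the 30 bases around 2 overlapping elements upstream of both genes.
Hspa5, chr2:34771840-34772089, + strand: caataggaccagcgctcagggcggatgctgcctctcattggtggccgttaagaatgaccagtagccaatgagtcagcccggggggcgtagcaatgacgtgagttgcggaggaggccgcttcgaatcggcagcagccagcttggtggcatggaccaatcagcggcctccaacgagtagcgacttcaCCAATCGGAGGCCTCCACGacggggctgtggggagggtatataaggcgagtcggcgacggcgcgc
Hsp90b1, chr10:86705445-86705694, - strand: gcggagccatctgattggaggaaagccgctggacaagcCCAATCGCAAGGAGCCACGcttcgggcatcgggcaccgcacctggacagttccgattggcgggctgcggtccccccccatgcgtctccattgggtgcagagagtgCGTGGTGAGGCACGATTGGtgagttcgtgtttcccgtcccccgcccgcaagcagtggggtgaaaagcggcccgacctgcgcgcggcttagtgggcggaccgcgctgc
Hspe1 and Hspd1, chr1:55088053-55088082, + strand: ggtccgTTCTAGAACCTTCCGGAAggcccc
Dnajb6, chr5:29735648-29735897, + strand: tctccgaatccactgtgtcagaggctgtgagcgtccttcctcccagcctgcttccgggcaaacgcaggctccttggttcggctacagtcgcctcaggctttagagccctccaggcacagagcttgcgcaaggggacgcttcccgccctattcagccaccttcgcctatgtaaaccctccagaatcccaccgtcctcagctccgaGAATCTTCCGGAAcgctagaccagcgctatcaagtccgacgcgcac
Hspa1a, chr17:34972157-34972406, - strand: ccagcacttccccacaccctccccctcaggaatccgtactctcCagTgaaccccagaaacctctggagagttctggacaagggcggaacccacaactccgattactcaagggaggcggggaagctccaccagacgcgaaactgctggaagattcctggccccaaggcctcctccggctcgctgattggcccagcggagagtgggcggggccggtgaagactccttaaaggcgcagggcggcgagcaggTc
Hspa1b, chr17:34959239-34959488, - strand: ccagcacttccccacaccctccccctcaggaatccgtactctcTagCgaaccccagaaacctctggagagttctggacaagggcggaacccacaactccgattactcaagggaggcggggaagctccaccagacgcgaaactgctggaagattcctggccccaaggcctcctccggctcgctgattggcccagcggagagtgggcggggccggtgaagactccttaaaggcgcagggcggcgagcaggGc

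In naive control ganglia 28 of the 90 genes were above 100 CPM, 53 lay between 1 and 100 CPM and 9 were below 1 CPM. Per kilobase of exon the highest was the constitutive cytosolic HSP90, Hsp90ab1, with a level of 390 CPM per kb, followed by the small heat shock protein Hspb8 (230), the inducible HSP90 Hsp90aa1 (116), Hspb1 (90.1), the co-chaperone Bag3 (89.9), the constitutive HSP70 Hspa8 (82.5), the atypical HSP70 Hspa12a (81.2) and the ER HSP70 Hspa5 (65.3). Hspb1, Bag3, Hspa8 and Hspa12a are neighbours in that order whose replicate ranges overlap, so their order by mean is not firm. The deposited FPKM divide by the whole gene span. The counts may thus include intron reads, for which levels per kilobase of exon make no allowance. On a per-span scale the mean of Hspa12a stood in place 32 and that of Bag3 in place 18, while Hsp90ab1 was first on both scales. Hspb8 and Bag3 form a complex in selective autophagy. The summed level of all 90 genes was 8646 to 9536 CPM in naive control ganglia, 9833 to 10505 after crush, 14381 to 15357 in the control sham ganglia of both sides and 15324 to 17998 in control neurons. Hsp90ab1, Hsp90aa1 and Hspa8 together made up 22.0% of that sum in naive control ganglia and 34.5% in control sham ganglia of either side.

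One day after nerve crush the small heat shock protein Hspb1 and the ER chaperone Hspa5 rose in both genotypes, Hspb1 close to 2-fold and Hspa5 by about 1.5 to 1.7-fold. Hspa1a, the J-domain genes Dnajb1, Dnajb5, Dnajb6 and Dnajb9, and the small heat shock proteins Hspb7 and Hspb8 rose with them, by smaller amounts or from a low level. The cytosolic HSP90 genes, Hspa8, Hsph1, the mitochondrial Hspd1 and Hspe1 and both heat shock factors were not called. Naive and crush libraries were all from 1 table. In control mice 23 of the 84 members tested were called at an adjusted p below 0.05 (edgeR's quasi-likelihood test, Benjamini-Hochberg over all genes), where 21.6% of all 21261 genes were. Of these, 18 were higher, against 12.9% of all genes, and 5 were lower, against 8.73%. In cKO mice 17 of 84 were called against 18.6% of all genes, 15 higher (10.7% of all) and 2 lower (7.89%). The median log2 fold change over the tested members was 0.08 in control and 0.04 in cKO mice, beside -0.02 and -0.01 over all genes. Naive and crush groups did not overlap for 35 members in control mice (37.7% of all genes) and 36 in cKO mice (36%), and an unadjusted p below 0.05 was reached by 34 (33.8%) and 30 (30.8%). The share of members called was thus near the background, and the direction of the calls is given with its own background above.

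**Figure D1:**
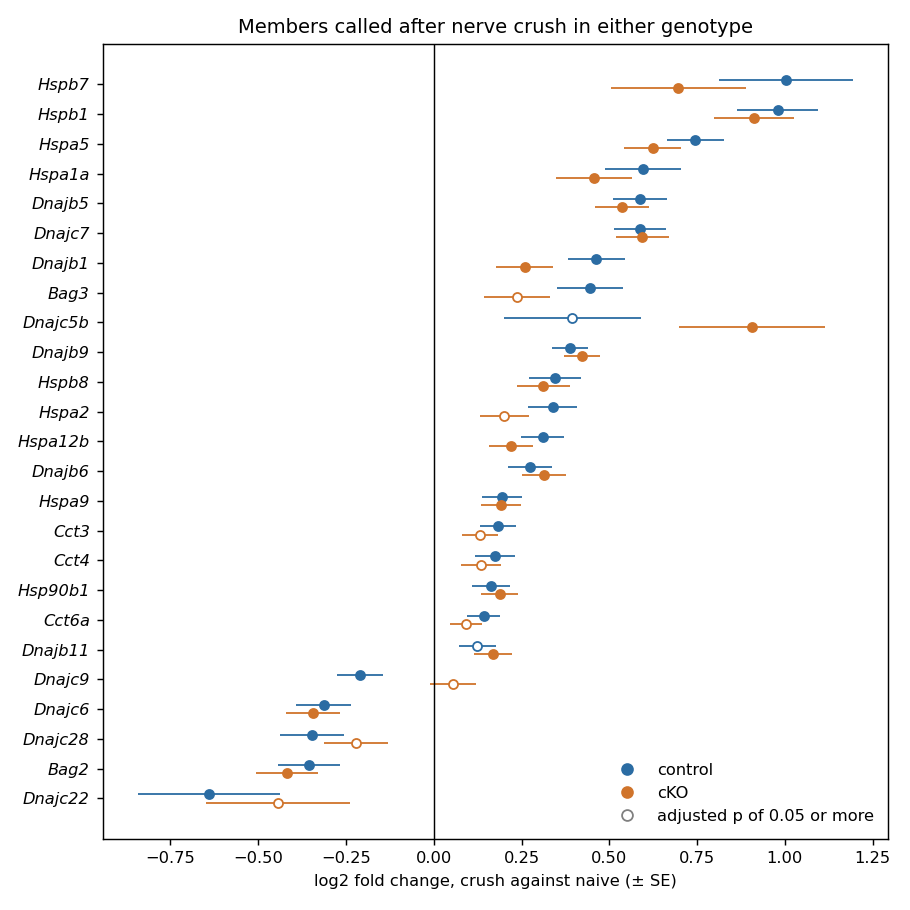
Log2 fold change (± SE) of crush against naive ganglia for each of the 25 members called in at least 1 genotype, control in blue and cKO in orange, 3 libraries per group; open circles did not pass an adjusted p of 0.05. Hspb7 and Hspb1 lie near 1 in control mice, Hspa5 at 0.74 and 0.62, and 5 genes lie below 0 in control mice.

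Hspb1 (HSP27, chr5:135887919-135889563, an actin-binding small heat shock protein known from axotomized sensory neurons) was at 89.4, 101 and 88.5 CPM in the 3 naive control libraries and at 176, 204 and 171 CPM after crush. In cKO mice it was at 96.4, 96.0 and 94.9 CPM naive and 149, 222 and 176 CPM after crush. All 6 crush libraries stood above all 6 naive ones. The log2 fold change was 0.98 ± 0.11 (SE, adjusted p = 0.000111) in control and 0.91 ± 0.11 (adjusted p = 0.000207) in cKO mice. Hspb8, Bag3's partner, was at 443, 469 and 435 CPM in naive and 579, 600 and 540 CPM in crushed control ganglia, a log2 fold change of 0.35 ± 0.07 (adjusted p = 0.00629). In cKO mice Hspb8 went from 465, 458 and 466 CPM to 515, 663 and 562 CPM, a log2 fold change of 0.31 ± 0.07 (adjusted p = 0.0122). Neither genotype's groups overlapped for Hspb8.

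Hspb7, a small heat shock protein best known from heart and skeletal muscle, was scarce: 1.56, 1.29 and 1.34 CPM in naive and 2.51, 2.79 and 3.15 CPM in crushed control ganglia. Its log2 fold change was 1.00 ± 0.19 (adjusted p = 0.00272) in control and 0.70 ± 0.19 (adjusted p = 0.0251) in cKO mice. The cKO call was lost in 6 of 12 alternatives, DESeq2 and either sex covariate among them, with log2 fold changes of 0.49 to 0.86 over the 12. Skeletal muscle markers summed to 3.22 to 27.8 CPM in naive and 4.06 to 11.1 CPM in crushed control ganglia. The 5 smooth muscle and pericyte markers summed to 274 to 313 CPM in naive and 362 to 397 CPM in crushed control ganglia, and to 268 to 348 and 353 to 384 CPM in cKO mice, without overlap in either genotype; their part in the Hspb7 result was not tested. Of the other 4 small heat shock proteins tested none was called in either genotype.

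Hspa5 (BiP, chr2:34771970-34777547), the HSP70 of the ER, was at 300, 264 and 265 CPM in naive and 454, 486 and 455 CPM in crushed control ganglia. In cKO mice it was at 268, 341 and 289 CPM naive and 447, 483 and 464 CPM after crush. The groups did not overlap in either genotype, with log2 fold changes of 0.74 ± 0.08 (adjusted p = 6.52e-05) and 0.62 ± 0.08 (adjusted p = 0.000256). Dnajb9 (ERdj4), a J-domain partner of Hspa5, was at 56.3, 56.2 and 57.9 CPM in naive and 75.3, 74.2 and 74.3 CPM in crushed control ganglia, so the groups did not overlap. It rose by 0.39 ± 0.05 (adjusted p = 0.000266) in control and 0.42 ± 0.05 (adjusted p = 0.000176) in cKO mice on the log2 scale. Hsp90b1, the ER HSP90, rose by 0.16 ± 0.05 in control (adjusted p = 0.0492) and 0.19 ± 0.05 in cKO mice (adjusted p = 0.0301). Both calls were lost under most alternatives, and an estimated 26% of Hsp90b1 counts could come from overlapping genes. Dnajb11 (ERdj3) rose in cKO mice (0.17 ± 0.05, adjusted p = 0.0449), with 0.12 in control mice. Dnajc3 and Dnajc10, also ER residents, had log2 fold changes of 0.08 and -0.05 in control mice and were not called.

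Among ER folding genes outside the families, 10 of the 14 tested rose in control mice and none fell, where 12.9% of all genes rose and 8.73% fell, with a median log2 fold change of 0.30. They included Sdf2l1 (0.60), a partner of Hspa5 and Dnajb11, the unfolded protein response factor Xbp1 (0.56), and the nucleotide exchange factor Hyou1 (0.39). In cKO mice 5 of the 14 rose and none fell (10.7% and 7.89% of all genes), with a median of 0.20, Xbp1 (0.48) and Sdf2l1 (0.44) among them. The cKO count depended on single libraries: it was 3 without cKO naive replicate 1, naive replicate 3, crush replicate 2 (the library whose sex did not match its label) or crush replicate 3, 9 without naive replicate 2, and 1 with sex by transcripts in the fit. Without crush replicate 3, and with labelled sex in the fit (3 higher), 1 of the 14 was also called lower. In control mice the count was 8 to 11 under all alternatives. The difference between genotypes was called for none of the 14, with a median of -0.10.

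Hspa1a, an inducible cytosolic HSP70 (chr17:34969190-34972156), was at 4.82, 5.19 and 4.85 CPM in naive and 7.44, 8.09 and 7.04 CPM in crushed control ganglia. Its log2 fold change was 0.60 ± 0.11 (adjusted p = 0.00206) in control and 0.46 ± 0.11 (adjusted p = 0.0118) in cKO mice, where the naive libraries (4.43, 5.89 and 4.55 CPM) also lay below the crushed ones (6.97, 7.10 and 6.48 CPM). Its neighbour Hspa1b, with a nearly identical sequence, was at 12, 12.1 and 10.7 CPM in naive and 10.5, 15.7 and 12.1 CPM in crushed control ganglia. The groups overlapped, and log2 fold changes of 0.13 ± 0.16 (adjusted p = 0.605) and, in cKO mice, -0.29 ± 0.15 (adjusted p = 0.239) did not pass. Reads of these paralogs can be split between them by the counting, and up to 79.9% of Hspa1a counts could belong to an overlapping gene on the other strand, so both levels are uncertain.

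Dnajb1 (HSP40), the main J-domain partner of cytosolic HSP70, was at 76.1, 83.7 and 79.2 CPM in naive and 104, 119 and 108 CPM in crushed control ganglia, a log2 fold change of 0.46 ± 0.08 (adjusted p = 0.00182). In cKO mice it was 0.26 ± 0.08 (adjusted p = 0.0463), a call lost under 8 alternatives, replicate numbers as a block among them. Dnajb5 went from 23.1, 23.8 and 22.1 CPM to 37.9, 35.1 and 31.2 CPM in control mice and rose by 0.59 ± 0.08 and, in cKO mice, 0.54 ± 0.08 on the log2 scale (adjusted p = 0.000221 and 0.000493). Dnajb6, a suppressor of aggregation, rose by 0.28 ± 0.06 and 0.32 ± 0.06 (adjusted p = 0.00808 and 0.0041). Dnajc7 rose by 0.59 in both genotypes, but an estimated 33.1% of its counts could come from overlapping genes, the myelin gene Cnp among them. In all, 4 of the 10 class B genes tested rose in control (12.9% of all genes) and 5 in cKO mice (10.7%), and none fell (8.73% and 7.89% of all genes).

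Bag3 was at 199, 259 and 233 CPM in naive and 298, 334 and 313 CPM in crushed control ganglia, a log2 fold change of 0.44 ± 0.09 (adjusted p = 0.0053), and had 0.24 in cKO mice, where it was not called. Bag2, which releases HSP70 clients and inhibits the ligase CHIP, fell in both genotypes. It was at 48.4, 43.5 and 42.1 CPM in naive and 35.8, 35.8 and 33.6 CPM in crushed control ganglia, and its log2 fold changes were -0.36 ± 0.09 (adjusted p = 0.0132) and -0.42 ± 0.09 (adjusted p = 0.00588). Dnajc6 (auxilin), which uncoats clathrin vesicles at synapses, fell as well, from 182, 214 and 204 CPM to 149, 170 and 166 CPM in control mice, by -0.31 ± 0.08 (adjusted p = 0.0133) there and -0.34 ± 0.08 (adjusted p = 0.00867) in cKO mice. Dnajc22 (-0.64), Dnajc28 (-0.35) and the histone-binding Dnajc9 (-0.21) fell in control mice and were not called in cKO mice. Dnajc22 lay between 1.64 and 2.87 CPM in these control libraries and lost its call in 11 of 12 alternatives, Dnajc9 lost it in 7 and Dnajc28 in 3.

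Smaller rises were called for the chaperonin and for mitochondrial HSP70. Cct3 (0.18), Cct4 (0.17) and Cct6a (0.14) rose in control mice, 3 of the 9 CCT genes tested beside 12.9% of all genes. In cKO mice their log2 fold changes were 0.13, 0.13 and 0.09, and none of the 9 was called, beside 10.7% of all genes called higher. Mitochondrial Hspa9 (mortalin) rose by 0.19 ± 0.06 in both genotypes (adjusted p = 0.0298 and 0.0343), calls lost in 4 of 12 alternatives in control and 7 of 12 in cKO mice, while Hspd1 (0.04 and -0.01) and Hspe1 (-0.08 and -0.06), which share the heat shock elements printed above, were not called. Hspa2 (0.34) rose in control mice and the endothelial HSP70 relative Hspa12b in both (0.31 and 0.22). Hsp90aa1 (0.21, adjusted p = 0.0756) and Hspa8 (0.16, adjusted p = 0.0937) lay above the naive range in all 3 crushed control libraries without passing.

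Of the calls, 15 were shared by the genotypes in the same direction, where 14.1% of all genes were. These were 65.2% of the members' control calls and 88.2% of their cKO calls, beside 65.1% and 75.6% over all called genes. Of the 8 called in control mice alone, 7 had the same sign in cKO mice, the exception being Dnajc9. The difference between the 2 crush responses, tested as an interaction with edgeR, was called for 0 of 84 members and 0% of all genes. At an unadjusted p below 0.05 it counted 1 member (Dnajc9, a difference of 0.27 ± 0.09, unadjusted p = 0.0137, adjusted p = 1.0) and 2.95% of all genes (627). The DESeq2 count was also 0. For Hspb1 the difference was -0.07 ± 0.16 and for Hspa5 -0.12 ± 0.11.

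The cKO count changed with the libraries and covariates in the fit. By transcripts 2 of the 3 cKO crush libraries were male and no naive one was, so that sex and crush are nearly the same split in cKO mice, and with sex by transcripts in the fit the count was 6 rather than 17, namely Hspb1 (0.64), Hspa5 (0.59), Dnajc7 (0.49), Dnajb5 (0.48), Dnajb9 (0.42) and Dnajb1 (0.41). The count was 12 without the cKO crush library that did not match its label, and 11 without cKO naive replicate 1, cKO naive replicate 3 or cKO crush replicate 3. In control mice, all female by transcripts, the count was 21 with sex in the fit, 17 without the mismatched crush library and 15 without crush replicate 2. Markers of other cells also moved with crush. In control mice the calls were 2 higher and 1 lower of 6 satellite glia markers, 1 higher of 5 smooth muscle and pericyte markers (median 0.39), 1 lower of 6 Schwann cell, 1 lower of 5 endothelial and 1 lower of 10 neuronal markers. In cKO mice they were 1 higher of 6 satellite glia, 2 lower of 10 neuronal and 2 lower of 5 red blood cell markers. None of the 6 macrophage, 5 fibroblast and 6 skeletal muscle markers was called in either genotype. The part of these cells in the results was not tested.

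**Figure D2:**
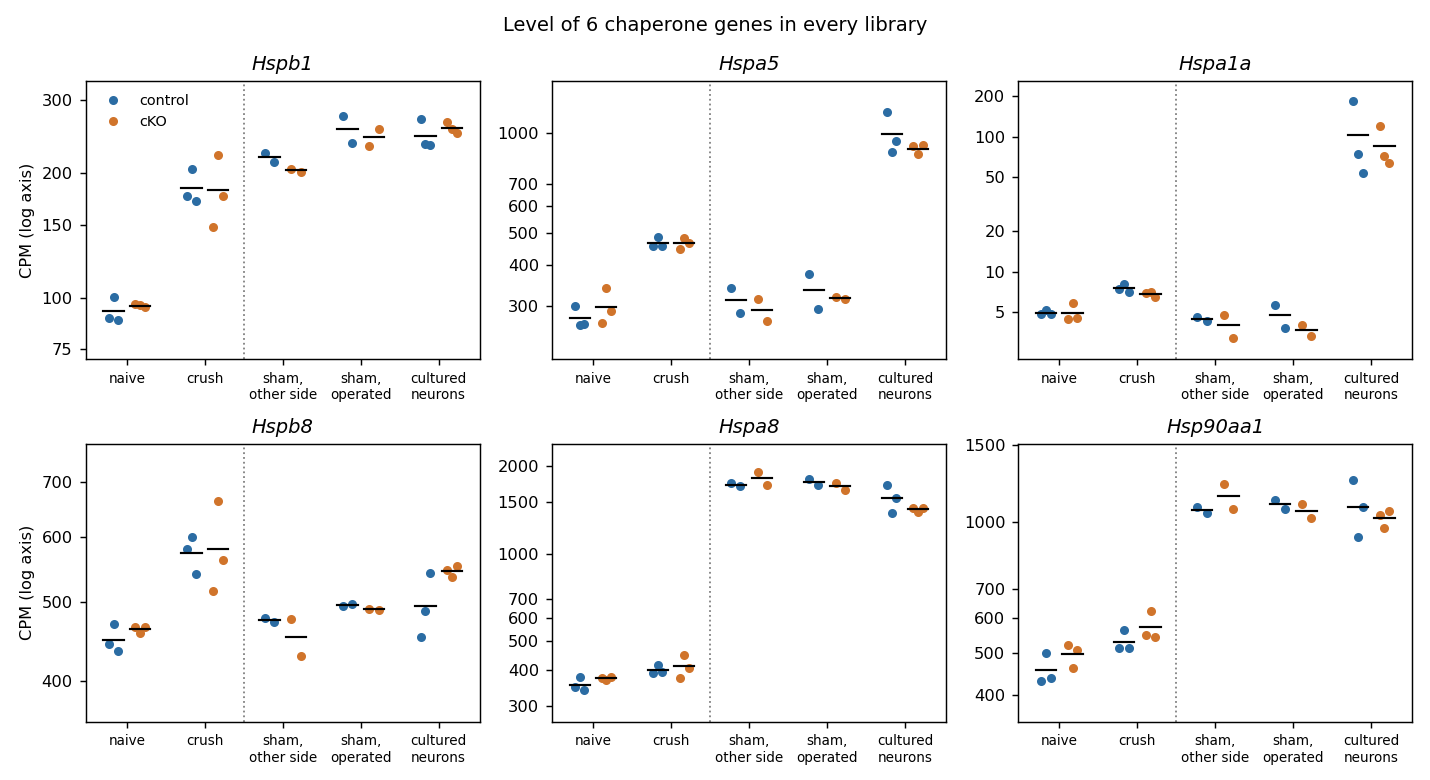
CPM (log axis) of 6 genes in every library by group, control in blue and cKO in orange, with a bar at each group mean; the dotted line separates the 2 deposited count tables. Hspb1 and Hspa5 rise with crush left of the line, Hspa1a is far higher in the neurons than in any ganglia, and Hspa8 and Hsp90aa1 differ more between the tables than between ganglia and neurons of the supplemental table.

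No member was called between genotypes in any of the 5 settings, which does not show that the genotypes are alike; the errors given here show what size of difference they allow. With edgeR 0 of 84 members were called in naive ganglia (0.00941% of all genes), 0 of 84 after crush (0.00941%), 0 of 85 in neurons (0%), 0 of 84 in operated sham ganglia (0.00451%) and 0 of 84 on the other side (0%). The numbers of members at an unadjusted p below 0.05 were 6, 1, 2, 3 and 4, where 5.79%, 2.72%, 8%, 7.59% and 5.23% of all genes were. In naive ganglia and after crush the called genes were 1 in each direction (0.0047%), none of them a member. The genotypes' libraries did not overlap for 7 members in naive ganglia (11.9% of all genes), 5 after crush (8.59%), 13 in neurons (15.3%), 27 in operated sham ganglia (34.6%) and 38 on the other side (46.1%). DESeq2 also gave 0 in each setting apart from the operated sham ganglia, where it called Hspb7. In naive ganglia the smallest p belonged to Hsph1, the HSP110 nucleotide exchange factor, with 148, 181 and 151 CPM in control and 192, 185 and 196 CPM in cKO mice. These groups did not overlap, and the log2 fold change of 0.26 ± 0.08 did not pass (unadjusted p = 0.00644, adjusted p = 0.754). Hsp90ab1 stood at 1133, 1256 and 1121 CPM in control and 1320, 1269 and 1300 CPM in cKO naive ganglia, a difference of 0.15 ± 0.07 (adjusted p = 0.754). After crush its ranges overlapped, as Hsph1's did.

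In cultured neurons the genotype difference was -0.31 ± 0.44 for Hspa1a and -0.17 ± 0.12 for Hspa5, and 0.04 ± 0.08 for Hspb1. The wide error of Hspa1a came with unequal replicates: 184, 74.0 and 53.6 CPM in control and 120, 72.1 and 63.5 CPM in cKO neurons. The library at 184 CPM, control replicate 1, was also the shallowest of the neurons at 25299938 counts, the next having 60139821.

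**Figure D3:**
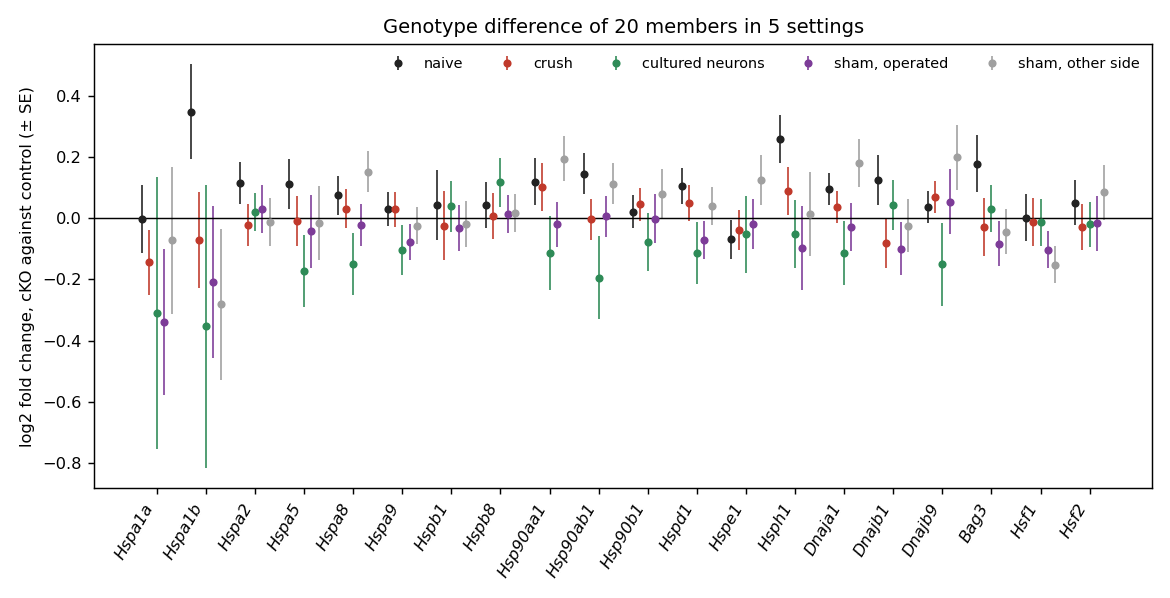
Log2 fold change (± SE) of cKO against control for 20 members fixed by name, in the 5 settings named in the legend (3 libraries per genotype, or 2 in the sham settings). No point passed an adjusted p of 0.05, and the widest error bars are those of Hspa1a and Hspa1b in the neurons.

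On the operated side of the sham mice Hspb7 had the largest genotype difference, a log2 fold change of 3.76 ± 0.91 (unadjusted p = 0.00354, adjusted p = 0.498), with unequal replicates. Hspb7 was at 1.80 and 1.06 CPM in control and 3.61 and 34.9 CPM in cKO operated ganglia. Hspb6 (HSP20), another muscle-rich small heat shock protein, was at 59.2 CPM in that same library, replicate 2, and at 14.9 to 20.2 CPM in the other 7 sham libraries. The 6 skeletal muscle markers summed to 2018 CPM there and to 4.18 to 362 CPM in the other 7. Without filtering on low counts both Hspb7 and Hspb6 were called, and DESeq2 called Hspb7. Without cKO sham mouse 1, which leaves that library as the only cKO one on its side, both were called, and without mouse 2 no member was. The part of muscle RNA in the result was not tested.

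**Figure D4:**
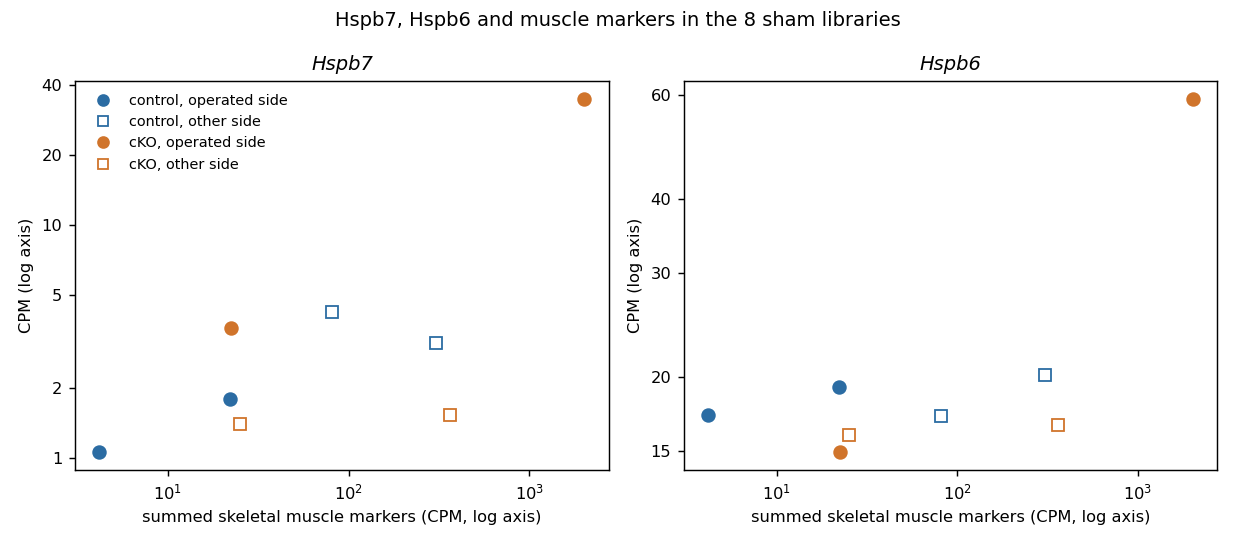
CPM of Hspb7 (left) and Hspb6 (right) against the summed CPM of 6 skeletal muscle markers in the 8 sham libraries, all axes logarithmic, with genotype by colour and side by symbol. The cKO operated library at 2018 CPM of muscle markers is the highest for both genes, while the other 7 lie between 1.06 and 4.26 CPM for Hspb7.

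Between the operated and the other side of the sham mice 0 of 84 members were called by edgeR, against 0.00451% of all genes, and 0 by DESeq2. At an unadjusted p below 0.05 there were 3 members, Hspb1, Dnajc6 and Dnajc7 (7.56% of all genes), and for 5 members the sides did not overlap (3.83% of all genes). Hspb1 was at 274, 236, 232 and 256 CPM on the operated side and 224, 213, 205 and 201 CPM on the other side, so that the sides did not overlap and every mouse was higher on the operated side. The log2 difference of 0.22 ± 0.05, from the edgeR model without a mouse term, did not pass over all genes (unadjusted p = 0.00311, adjusted p = 0.373). With the mouse as a block no member was called either. Hspa5 (0.08 ± 0.08) and Hspa1a (-0.03 ± 0.17) overlapped between sides. Crush and sham ganglia are in separate tables and were not tested against each other: Hspb1 was at 201 to 274 CPM in sham and 149 to 222 CPM in crushed ganglia.

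Neurons after 24 h in culture had far more Hspa1a and Hspa1b than any ganglia, more Hspa5, Hspa9, Hsp90b1 and Hsph1, and less Hspa12a, Bag2, Dnajc6 and Dnajc27, whichever ganglia they were set against. The neurons were compared with naive ganglia, which are in the other table. The contralateral sham ganglia, in the same table but from male mice after surgery, served as a second reference. Against naive ganglia 71 of 84 members were called in control mice (83.2% of all genes), 52 higher (41.7% of all) and 19 lower (41.6%), and 77 in cKO mice (82.1%), 57 higher (42%) and 20 lower (40.1%). Against sham ganglia 34 of 87 members were higher in control mice (33.1% of all genes) and 27 lower (35.6%), and in cKO mice 35 were higher (32.2%) and 28 lower (33.8%). Neurons and naive ganglia did not overlap for 72 members in control mice (82.3% of all genes) and 77 in cKO mice (86.2%). Calls in the same direction against both references numbered 31 higher (27.7% of all genes) and 17 lower (26.5%) in control mice. In cKO mice they numbered 32 higher (27.9%) and 16 lower (25%). In both genotypes and against both references 42 of 84 members had the same call, where 47.3% of all genes did.

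The references differ. Hspa8 was at 347, 378 and 340 CPM in naive and at 1743 and 1705 CPM in contralateral sham control ganglia, and over the tested members the median ratio of sham to naive level was 1.26 in control mice and 1.24 in cKO mice. The median log2 fold change of neurons was 0.69 against naive and 0.10 against sham ganglia in control mice (all genes: -0.02 against naive). The sequencing, the table, the sex and the surgery cannot be told apart as sources of that difference. Summed marker levels also differed between neurons and ganglia. The 6 Schwann cell markers summed to 607 to 739 CPM in neurons and 3068 to 5036 CPM in naive ganglia. The 5 endothelial markers summed to 921 to 1377 against 101 to 179 CPM. The 10 neuronal markers summed to 4659 to 5372 against 6434 to 7706 CPM. In contralateral sham ganglia of both genotypes these sums were 3271 to 4899, 72.0 to 134 and 10406 to 10615 CPM, in that order. Neuronal markers were thus lower in neurons than in both references, and further below sham than naive ganglia. Macrophage markers were higher in neurons than in naive ganglia, and fibroblast, red blood cell and proliferating cell markers lower, without overlap. The part of these marker differences in the results was not tested.

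Hspa1a was at 184, 74.0 and 53.6 CPM in control neurons, at 4.82 to 5.19 CPM in naive and 4.28 to 4.64 CPM in contralateral sham ganglia. Its log2 fold change was 4.38 ± 0.46 against naive (adjusted p = 1.72e-06) and 4.50 ± 0.58 against sham ganglia (adjusted p = 5.35e-05). In cKO mice the values were 4.08 ± 0.45 and 4.29 ± 0.59. Hspa1b was at 345, 135 and 97.8 CPM in control neurons and 10.7 to 12.1 CPM in naive ganglia, log2 fold changes of 4.04 ± 0.45 and, against sham, 3.78 ± 0.58. Every neuron library lay above every ganglion library for both genes. Without control replicate 1, the shallow library with the highest values, the log2 fold change against naive was 3.69 for Hspa1a and 3.33 for Hspa1b.

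Hspa5 was at 1155, 872 and 941 CPM in control neurons, 264 to 300 CPM in naive and 287 to 341 CPM in contralateral sham ganglia. The 3 log2 values of 1.83 against naive, 1.62 against sham ganglia and 0.74 after crush were all called, and those of Hsp90b1 and Dnajb9 were too. Hspa9 was at 799, 702 and 776 CPM in control neurons, at 158 to 167 CPM in naive and 290 to 296 CPM in sham ganglia, a log2 fold change of 2.22 and 1.33 respectively. Dnajb9 rose by 0.46 and 1.70 and Hsp90b1 by 1.65 and 0.73. In the same order Dnajb5 rose by 0.91 and 0.60, Dnajb1 by 0.36 and 0.29, and the heat shock factors Hsf1 by 1.36 and 0.21 and Hsf2 by 0.75 and 0.72. Hsph1 rose by 1.19 and 0.46 and Hspa2 by 0.32 and 0.23, and in cKO mice by 0.89 and 0.43 and by 0.23 and 0.29, all of them called. Dnajc2, a ribosome-associated J-domain protein, was at 75.9, 60.6 and 64.4 CPM in control neurons, 13.3 to 15.3 CPM in naive and 41.8 to 45.3 CPM in sham ganglia (2.23 and 0.58, and 2.23 and 0.32 in cKO mice). Every control neuron library lay above both sets of ganglia for Dnajc2. Of the 9 CCT genes tested 8 were higher than in naive ganglia in control mice (41.7% of all genes), and 4 of those (Cct2, Cct4, Cct8 and Tcp1) were also higher than in sham ganglia (27.7% of all genes against both). Cct2 rose by 2.13 and 0.48. In cKO mice 5 were higher against both (27.9% of all genes), Cct2, Cct3, Cct4, Cct5 and Tcp1.

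Bag2, lower after crush, was lower in neurons too: 15.7, 15 and 12.9 CPM in control neurons against 42.1 to 48.4 CPM in naive and 37.0 to 39.0 CPM in sham ganglia, log2 fold changes of -1.64 and -1.44. Hspa12a, an HSP70 relative rich in brain, was at 252, 283 and 353 CPM in control neurons and 643 to 821 CPM in naive ganglia (-1.34, and -1.35 against sham). Dnajc6 fell by -0.82 and -1.11 and Dnajc5 (cysteine string protein), which like Dnajc6 acts at synaptic vesicles, by -0.67 and -0.49. Dnajc27 (-1.28 and -1.24) and Dnajb14 (-1.42 and -0.66) were lower against both as well. So were Dnajc22 (-1.51 and -1.25), Dnajc15 (-1.01 and -0.86), Hspb6 (-0.77 and -0.91) and Bag4 (-0.93 and -0.67). An estimated 69.1% of Bag4 counts could come from an overlapping gene. In cKO mice Dnajc22 had -0.97 and -0.99, Dnajc15 -0.88 and -0.80 and Bag4 -0.95 and -0.61, all called. Of the 27 class C J-domain genes tested, 10 were lower and 6 higher against both references in control mice (26.5% and 27.7% of all genes), and 9 lower and 4 higher in cKO mice (25% and 27.9%). Dnajc13, which acts in endosomal sorting, was among the higher ones (1.43 and 0.51).

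For other members the direction, the size or the call differed between the references. Hspa8 had a log2 fold change of 2.12 against naive and -0.20 against sham ganglia in control mice (adjusted p = 0.11), and 1.90 and -0.47 in cKO mice (adjusted p = 0.00233), where both calls passed in opposite directions. Hsp90aa1 (1.24 and -0.011 in control, 1.02 and -0.29 in cKO mice), Hspe1 (0.91 and -0.021, 0.94 and -0.16), Dnaja1 (0.52 and -0.21, 0.32 and -0.47) and Dnajc17 (2.65 and -0.28, 2.69 and -0.28) also changed sign. Dnajc17 lay at 1.11 to 2.07 CPM in naive control ganglia, and an estimated 25.2% of its counts could come from overlapping genes, Zfyve19 among them. Hsp90ab1 did so in cKO mice (0.81 and -0.12) and had 1.14 and 0.16 in control mice. Hspb1 rose by 1.40 against naive ganglia in both genotypes, but against sham ganglia by 0.22 in cKO mice (adjusted p = 0.0341) and by an uncalled 0.13 in control mice (adjusted p = 0.176). Hspd1 had 1.08 and 0.25 in control mice, both called, and 0.87 and an uncalled 0.13 in cKO mice. Bag3 had 0.66 and an uncalled 0.11 in control mice, and 0.52 and 0.22 in cKO mice, both called. Of the values of Hspb8, 0.13 and 0.01 in control and 0.21 and 0.15 in cKO mice, the 0.21 against naive ganglia alone was called. In all 5 members in control mice (8.99% of all genes) and 8 in cKO mice (7.8%) were called in opposite directions by the 2 references.

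**Figure D5:**
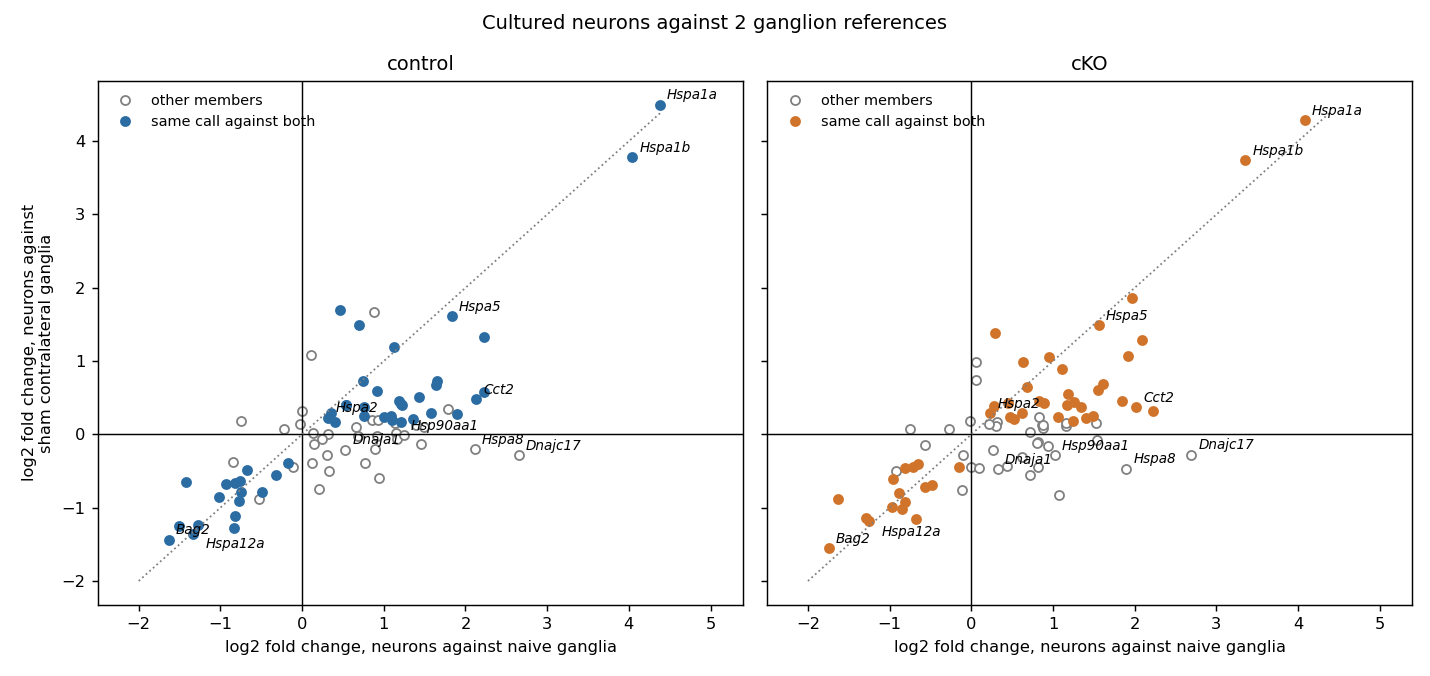
Log2 fold change of cultured neurons against naive ganglia (x axis) and against contralateral sham ganglia (y axis) for the 84 members tested, control left and cKO right; filled points have the same call against both and the dotted line marks equality. Hspa1a, Hspa1b and Hspa5 lie near the line, while Hspa8 and Dnajc17 lie to the right of 1.8 and below 0.

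The difference between genotypes in neurons against naive ganglia was called for 0 of 84 members (0.00451% of all genes), and 2, Dnajc3 and Hsp90ab1, reached an unadjusted p below 0.05 (7.54% of all genes). For Hspa1a the difference was -0.29 ± 0.62 and for Hspb1 0.00 ± 0.10. Of the 90 genes, Cct8l1, Dnajb7 and Dnajc5g passed the filter on low counts in no fit, and Dnajb8 and Hspb3 passed it where neurons were set against sham ganglia but in no other comparison; Dnajb3 passed it in that fit and between the genotypes in neurons.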

How the data were processed

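The authors deposited 2 count tables, whole-number counts per Ensembl gene for 12 and 14 libraries, and 2 matching FPKM tables, used here for gene length only. The kits were RNeasy Plus Mini and TruSeq Stranded mRNA, per the labels, and the submitters' processing notes name Trim Galore, HISAT2, featureCounts and mm10. In the deposited FPKM the implied length was the gene span for 99.0% of genes and the exon length for 14.0%, so the counts may include reads in introns. Tsix had 100.0% to 100.3% of the Xist counts, so overlapping genes share counts whatever their strand. A member is named as uncertain where exons of neighbours, at even coverage, could give 20% or more of its counts. The shares given are such estimates, and uneven coverage or reads in introns of neighbours could make them larger. Symbols and coordinates come from GENCODE M21 (GRCm38), with 99.53% of IDs matched.

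The members, gene lists and tests were chosen with earlier results of these data known. Genes were filtered with filterByExpr (minimum count 10, total 15), scaled by TMM and tested with edgeR 4.0.16 (quasi-likelihood), with Benjamini-Hochberg adjustment over all genes and a threshold of 0.05. The comparison sets were naive with crush ganglia, neurons, sham ganglia, and neurons with naive ganglia. Levels are CPM on 1 TMM scale over 26 libraries. The rule for naming took 20 fixed members and, where more than 5 were called, the 6 largest changes in each direction with at least 1 CPM and groups that did not overlap. Where none was called, the text gives a few of the 20, chosen after their values were seen, as were all genes outside the rule. Alternatives were DESeq2 1.42.0, other size factors, no filter, replicate number as block, sex as covariate, each library left out and another reference for the neurons. The sample labels give each library a mouse number, read here as separate mice. Where separate cultures are not stated, part of the spread that p-values measure may be technical. Both sides of a sham mouse come from 1 animal, so the mouse pairs them. The model without a mouse term treats these sides as separate samples. Replicates differed beyond counting noise in every pair (chi-square per degree of freedom 3.32 to 39.9). The steps were tested on simulated counts.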

Additional observations from a re-analysis of the deposited data

Results flagged for a closer look

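In 5 cases an effect had opposite directions in a pair of settings with groups that did not overlap in either, among 36 named members in 5 genotype settings (360 pairs of settings) and between the sham sides. None of these differences was tested, and 34.6% of all genes in operated sham ganglia and 46.1% on the other side did not overlap between genotypes. The genotype difference of Hspb7 was 3.76 on the log2 scale on the operated side of sham mice and -1.25 on the other side, and the log2 ratio of operated to other side was 3.71 in cKO and -1.36 in control mice. The values of 3.76 and 3.71 include the cKO library with 2018 CPM of muscle markers. In control mice these markers summed to 81.3 and 306 CPM on the other side, where Hspb7 was higher, and to 22.0 and 4.18 CPM on the operated side; their part in these values was not tested. The other cKO operated library, at 3.61 CPM, also lay above both control operated libraries and both cKO libraries of the other side. The genotype difference of Dnajc22 was 0.32 in neurons and -0.51 in operated sham ganglia, at 0.81 to 2.83 CPM. That of Dnajc15 was 0.12 after crush and -0.015 in operated sham ganglia. Dnajc27 had a log2 ratio of operated to other side of -0.05 in control and 0.06 in cKO sham mice.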

How the results depend on the processing

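The number of members called after crush in control mice was 15 to 24 when 1 library was left out and 16 to 21 under the other alternatives (main count 23). In cKO mice it was 11 to 17 and 6 to 17 (main 17), the 6 being with sex by transcripts as a covariate. For the genotype comparison in operated sham ganglia it was 1 with DESeq2, 2 with no filter and 0 to 2 with 1 mouse left out (main 0). Neurons against naive ganglia gave 71 to 73 and 61 to 72 in control mice (main 71), and 72 to 75 and 63 to 77 in cKO mice (main 77). The other 6 comparisons for which alternatives were run gave 0 in each of them. For the genotype difference in neurons against naive ganglia, added after seeing the data, no alternative was run. Of 999 alternative values for 88 gene calls, 900 kept direction and threshold, 88 kept direction alone and 11 reversed. The reversals all came with contralateral sham ganglia as the neurons' reference. In control mice these were Hspa8 -0.20, Hsp90aa1 -0.011, Hspe1 -0.021, Dnaja1 -0.21 and Dnajc17 -0.28. In cKO mice they were Hspa8 -0.47, Hsp90aa1 -0.29, Hsp90ab1 -0.12, Hspe1 -0.16, Dnaja1 -0.47 and Dnajc17 -0.28. The cause was not tested.

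Replicate numbers did not pair the naive and crush libraries: same-numbered deviations correlated at -0.392 to 0.393, above 0.1 in 4 of 18 pairs. Among the neurons they correlated at 0.069 to 0.238, above 0.1 in 2 of 3 pairs, against -0.153 to 0.021 for different numbers, so that not every pair was above 0.1. With the replicate block the crush counts were 18 in control and 16 in cKO mice. The neuron counts with the block were 72 in control and 76 in cKO mice, and all genotype comparisons stayed at 0. With the mouse as a block the sham sides also gave 0 members. Sham groups hold 2 mice per genotype. Members below 2 CPM in a group, such as Dnajc5b and Hspb7 in naive control ganglia, rest on few counts there.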

Other observations

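After crush, when 21.6% of all genes were called in control and 18.6% in cKO mice, 2 and 1 of 22 HSP90 and HSP70 co-chaperones outside the families were called. Fkbp5 (0.69), an HSP90-bound immunophilin, and Unc45a (0.30) rose in control mice and Fkbp4 (-0.19) fell in cKO mice, with medians over the 22 of -0.03 in control and -0.01 in cKO mice. The mitochondrial protease subunit Clpx rose in both genotypes (0.31 and 0.40), 1 of 11 mitochondrial genes tested in each. So did the autophagy receptor Sqstm1 (0.35 and 0.29), while the prefoldin-related Pdrg1 rose by 0.21 and 0.40. In each genotype the calls were 1 higher and 1 lower of 10 other heat shock factors and targets, Sqstm1 among the 10. They were 1 higher and 0 lower of 9 crystallins and prefoldin subunits. In control neurons against naive ganglia, where 41.7% of all genes were called higher and 41.6% lower, the calls were 13 higher and 0 lower of 14 ER folding genes (median 1.08). They were 13 higher and 4 lower of 22 co-chaperones, 6 and 2 of 9 crystallins and prefoldin subunits, 9 and 1 of 11 mitochondrial genes and 6 and 2 of 10 other heat shock factors and targets. Chosen after their values were seen, Hmox1, a heme oxygenase induced by oxidative stress, had a log2 fold change of 5.73 there and Cryab, the small heat shock protein alpha B-crystallin, 2.08. These neuron values were not recomputed against sham ganglia.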
